A study of Mus musculus with 10 samples.

Results

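Troponin and the myosin light chains are the calcium switch and the lever-arm supports of the heart's contractile machinery. Troponin C binds calcium, troponin I holds the thin filament off until calcium arrives, and troponin T ties both to tropomyosin. Each myosin head carries an essential and a regulatory light chain, and phosphorylation of the regulatory chain tunes the force of contraction. The heart changes members of these families as it matures: slow skeletal troponin I gives way to cardiac troponin I, an embryonic exon of cardiac troponin T is largely left out, and atria and ventricles keep different light chains.

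The members were 10 named genes, of 45882 gene IDs in all, with 78 of the 109869 annotated transcripts. They were the troponin T genes Tnnt1 (slow skeletal) and Tnnt2 (cardiac), the troponin I genes Tnni1 (slow skeletal, fetal heart) and Tnni3 (cardiac), and Tnnc1 (cardiac and slow skeletal troponin C). The light chains were Myl2 (ventricular regulatory), Myl3 (ventricular essential), Myl4 (atrial and fetal essential), Myl7 (atrial regulatory) and Myl9 (regulatory, of smooth muscle and non-muscle cells). The genes were chosen by name.

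RNA came from isolated cardiac myocytes of the left ventricle of adult C57BL/6 mice, in 10 libraries that each carry a mouse number of their own. The groups were CTCF_knockout (4 libraries), TAC (3 libraries; transverse aortic constriction, a narrowing of the aorta that loads the ventricle with pressure, from mice described as having diseased hearts) and control (3 libraries). CTCF, a DNA-binding protein with zinc fingers, helps to shape chromatin loops. The labels used here give neither the age of the mice beyond adult, nor the genotype of the TAC group, nor how CTCF was deleted, and whether controls carried a Cre or floxed allele is likewise not stated. They name polyA RNA while describing removal of ribosomal RNA, so the selection of RNA is uncertain. Levels below are FPKM (fragments scaled to transcript length and library size) estimated by the authors with Cufflinks, summed by gene and rescaled between libraries, and fold changes are differences of log2(FPKM + 1) from limma. A gene or transcript was called at a Benjamini-Hochberg adjusted p under 0.05 over all features tested.

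Ctcf itself measured 2.90, 4.01, 2.60 and 4.42 FPKM in CTCF knockout libraries, against 8.81, 8.34 and 6.80 FPKM in control libraries (log2 fold change -1.02, SE 0.16, limma adjusted p = 0.00136). TAC libraries had 5.22 to 7.32 FPKM of Ctcf. Ventricular myocyte markers (8 genes such as Myh6, Actn2 and Ryr2) summed to 16038 to 19658 FPKM in knockout, 18738 to 21155 FPKM in TAC and 22121 to 22453 FPKM in control libraries. The list went both ways: 2 were called higher and 4 lower in knockout, and 2 higher and 2 lower in TAC. These are 75% and 50% of the list, against 20.8% and 15.5% of all genes tested. None of the 7 fast skeletal muscle markers averaged 1 FPKM, and their sum stayed between 0.0732 and 0.543 FPKM in every library. The atrial markers summed to 979 to 1792 FPKM in knockout, 1035 to 2399 FPKM in TAC and 84.6 to 91.5 FPKM in control libraries. Nppa made up nearly all of it in knockout (958 to 1772 FPKM) and TAC libraries (1016 to 2381 FPKM). In control libraries Nppa stood at 43.3 to 43.8 FPKM, well short of the sum. Bmp10, which marks atrial myocytes, did not pass 0.0736 FPKM in any library. It was 1 of 3 among the 8 atrial markers that averaged under 1 FPKM, and the 5 others averaged more. Of 5 atrial markers tested, 2 were called higher and 3 lower in knockout, and 1 higher and 3 lower in TAC. That is 100% and 80% called, against 20.8% and 15.5% of all genes tested. Smooth muscle and pericyte markers summed to 106 to 129 FPKM in knockout, 124 to 136 FPKM in TAC and 200 to 208 FPKM in control libraries. Macrophage and leukocyte markers summed to 68.8 to 114 FPKM in knockout, 93.9 to 111 FPKM in TAC and 61.0 to 84.3 FPKM in control libraries. Fibroblast markers summed to 191 to 309 FPKM in knockout, 215 to 265 FPKM in TAC and 132 to 269 FPKM in control libraries, and endothelial markers to 61.6 to 115 FPKM in knockout, 77.7 to 110 FPKM in TAC and 55.6 to 74.3 FPKM in control libraries. The 4 liver markers, which myocytes should lack, summed to 0.0638 to 0.540 FPKM in knockout, 0.343 to 0.643 FPKM in TAC and 4.59 to 6.42 FPKM in control libraries. The part of these markers in the results below was not tested. In RNA from many cells, fewer cells of a type and less RNA per cell cannot be told apart.

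Of the 10 genes, 9 passed the minimum mean of 1 FPKM and were tested. Only Tnni1 did not. Between CTCF knockout and control 1 of the 9 was called, Tnni3 (lower), against 20.8% of all 11358 genes tested (10.6% higher and 10.2% lower). Between TAC and control 2 were called, Tnni3 and Tnnt1 (both lower), against 15.5% of all genes (8.08% higher and 7.37% lower). Between CTCF knockout and TAC 1 was called, Tnnt1 (higher in knockout), against 3.28% of all genes (1.58% higher and 1.7% lower). Without rescaling, the share of higher genes among all calls moved to 73.5%, against 50.9% with it, for knockout, and to 66.4%, against 52.3%, for TAC. The median log2 fold change of the 9 genes was 0.18 for knockout against control, -0.24 for TAC against control and 0.18 for knockout against TAC, where all genes tested had medians of -0.01, -0.00 and -0.01. Both comparisons with control share the same 3 control libraries.

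**Figure D1:**
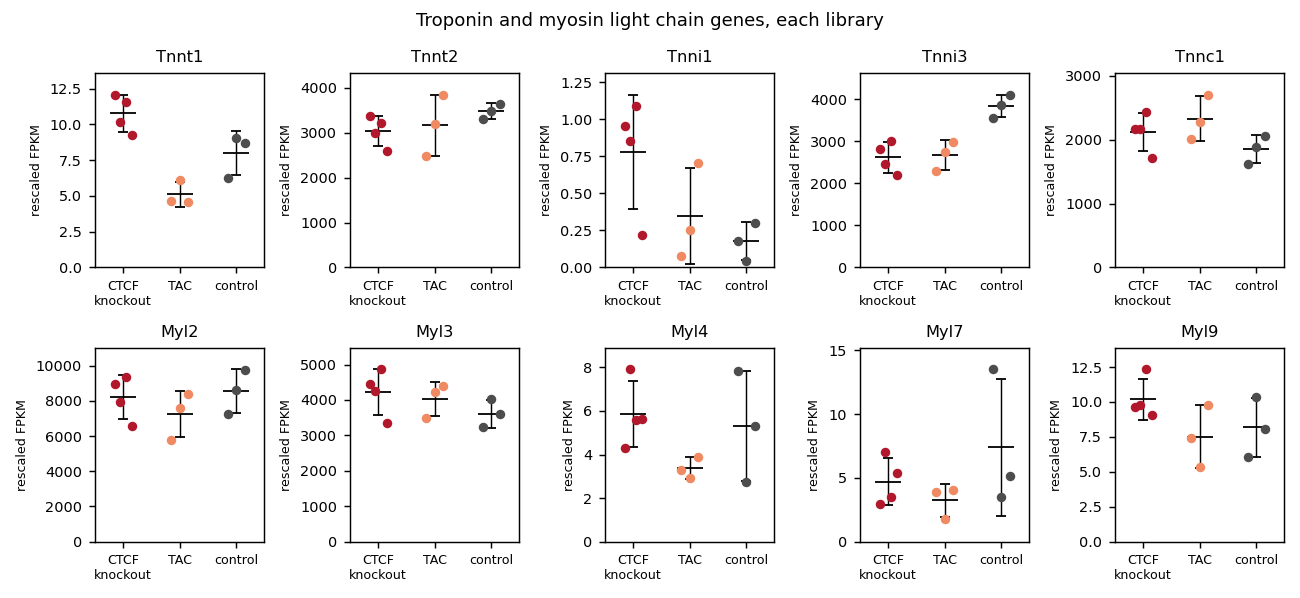
FPKM (rescaled, vertical axes from 0, each with its own scale) of the 10 genes in 4 CTCF knockout, 3 TAC and 3 control libraries; points are libraries, and bars are the mean with 1 SD. Tnni3 in the knockout and TAC libraries sits at 2197 to 3000 FPKM, below all controls at 3562 to 4096 FPKM, and Tnnt1 is highest in the knockout and lowest in the TAC libraries.

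Tnni3, the cardiac troponin I of the adult heart, was lower in both conditions by a similar amount. It measured 2820, 2450, 3000 and 2197 FPKM in CTCF knockout libraries, 2295, 2750 and 2978 FPKM in TAC libraries and 3562, 3852 and 4096 FPKM in control libraries. Every knockout and every TAC library lay below every control. The same held for 16% of all tested genes in knockout and 15.7% in TAC. The mean fell to 2617 ± 362 FPKM in knockout (SD, n = 4), against 3836 ± 267 FPKM in control (SD, n = 3), a log2 fold change of -0.56 (SE 0.15, limma adjusted p = 0.0224). It fell to 2674 ± 348 FPKM in TAC (SD, n = 3), a log2 fold change of -0.53 (SE 0.16, limma adjusted p = 0.0474). Knockout and TAC overlapped and differed by -0.03 (95% interval -0.36 to 0.30). The TAC call was narrow: 16 of 22 alternatives ended it, among them 9 of the 10 that left out 1 library (adjusted p up to 0.143), and the knockout call was lost without control library 2 (adjusted p = 0.0655), control library 3 (0.0788) or knockout library 2 (0.0654), with no rescaling (log2 fold change -0.43, 0.131) and with no minimum (0.156), 5 of 22 alternatives in all.

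Slow skeletal Tnni1, the fetal partner of Tnni3, stayed at the edge of detection. It reached 0.952, 0.856, 1.09 and 0.216 FPKM in knockout, 0.0786, 0.255 and 0.704 FPKM in TAC and 0.180, 0.0449 and 0.302 FPKM in control libraries. In 3 of the 4 knockout libraries it stood above every other library, and knockout library 4 lay within the control range. When the minimum was dropped, Tnni1 had log2 fold changes of 0.57 (limma adjusted p = 0.154) in knockout and 0.17 (adjusted p = 0.761) in TAC, and was not called. It made up at most 0.0362% of the FPKM of both troponin I genes in any library, and the mean share was 0.0287% ± 0.0126 in knockout, 0.0121% ± 0.0104 in TAC and 0.00454% ± 0.00314 in control libraries (SD). Cardiac troponin I thus made up nearly all troponin I RNA in each library.

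Tnnt1, the slow skeletal troponin T, was the member gene called between knockout and TAC. It measured 12.1, 10.2, 11.6 and 9.28 FPKM in CTCF knockout libraries, 4.65, 6.07 and 4.57 FPKM in TAC libraries and 6.26, 9.03 and 8.73 FPKM in control libraries. All knockout libraries lay above all controls and all TAC libraries lay below them, and groups failed to overlap for 30.8% of all tested genes in knockout (14.8% higher, 16% lower) and 31.6% in TAC (16% higher, 15.7% lower). In TAC libraries it fell to 5.10 ± 0.846 FPKM, against 8.01 ± 1.52 FPKM in control libraries (SD, n = 3 each; log2 fold change -0.56, SE 0.15, limma adjusted p = 0.0297). Knockout libraries averaged 10.8 ± 1.28 FPKM (SD, n = 4), a log2 fold change from control of 0.39 (SE 0.14) that was not called (limma adjusted p = 0.0719). Between knockout and TAC libraries Tnnt1 differed by 0.95 on the log2 scale (SE 0.14, limma adjusted p = 0.00620), which held under all 22 alternatives. Of 22 alternatives 8 ended the TAC call, including those without control library 2 (adjusted p = 0.0978), control library 3 (0.0889), TAC library 1 (0.0913) or TAC library 3 (0.0989). The highest transcript, Tnnt1-201, was not called: it averaged 4.22 FPKM in knockout, 2.33 FPKM in TAC and 2.67 FPKM in control libraries. TAC overlapped with control (log2 fold change -0.17, limma adjusted p = 0.609), and the difference between knockout and TAC was 0.67 (adjusted p = 0.105).

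As a share of troponin T RNA, Tnnt1 was small but even in the knockout. It made up 0.357%, 0.339%, 0.358% and 0.358% of the FPKM of Tnnt1 and Tnnt2 in knockout libraries, 0.187%, 0.190% and 0.119% in TAC libraries and 0.190%, 0.258% and 0.239% in control libraries. The knockout shares lay above all others, and how often shares of other gene pairs do so was not computed. The TAC and control shares touched, since TAC library 2 and control library 1 were nearly equal.

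Tnnt1 and Tnni3 are neighbours on chromosome 7, both on the minus strand, with 1922 nt between their annotated ends in the files (mm10). Tnnt1 (ENSMUSG00000064179) spans chr7:4504570-4516382 and Tnni3 (ENSMUSG00000035458) spans chr7:4518305-4524229. In TAC libraries both were called lower, and in knockout libraries only Tnni3 was called. The 250 bases before each RefSeq start (GRCm38.p6, minus strand, printed 5′ to 3′) are shown because the pair lies side by side and holds the member genes that were called. The difference between the genes was not tested. Capitals mark matches, on either strand, to the motifs searched.
Tnni3 (chr7:4522529-4522778): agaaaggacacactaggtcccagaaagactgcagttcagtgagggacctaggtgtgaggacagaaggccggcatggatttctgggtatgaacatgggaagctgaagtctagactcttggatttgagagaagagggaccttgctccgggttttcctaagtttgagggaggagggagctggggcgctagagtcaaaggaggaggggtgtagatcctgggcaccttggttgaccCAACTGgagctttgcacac
Tnnt1 (chr7:4515976-4516225): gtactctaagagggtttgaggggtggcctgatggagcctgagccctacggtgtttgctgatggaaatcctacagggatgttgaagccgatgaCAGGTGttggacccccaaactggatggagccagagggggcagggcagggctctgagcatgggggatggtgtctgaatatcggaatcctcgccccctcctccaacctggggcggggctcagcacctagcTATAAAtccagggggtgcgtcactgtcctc
The Tnni3 window held 1 E-box (CANNTG), 19 bases before the start, and no TATAAA. The Tnnt1 window held TATAAA at 30 bases and 1 E-box at 158 bases before the start. Of 32851 windows of the same length, 66.2% held CANNTG and 12.4% held TATAAA. Neither window held AGATAA (9.99% of windows), TGATAA (7.94%), CATTCC (12.6%), the MEF2 site (2.92%) or the CArG box (1.47%).

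Tnnt2, the cardiac troponin T, was not called at the level of the gene. It measured 3365, 2988, 3223 and 2583 FPKM in knockout, 2479, 3192 and 3835 FPKM in TAC and 3297, 3496 and 3646 FPKM in control libraries, and the groups overlapped. The log2 fold changes were -0.20 (95% interval -0.56 to 0.16) in knockout and -0.16 (-0.54 to 0.23) in TAC. Tnnc1, the calcium-binding subunit, stood at 2166, 2162, 2440 and 1716 FPKM in knockout, 2002, 2272 and 2702 FPKM in TAC and 1621, 1890 and 2058 FPKM in control libraries. Its log2 fold changes of 0.19 in knockout (limma adjusted p = 0.450) and 0.32 in TAC (adjusted p = 0.233) were not called. The antisense gene Nisch, which overlaps Tnnc1, averaged 38.1 FPKM, and whether counting used the strand is not stated.

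**Figure D2:**
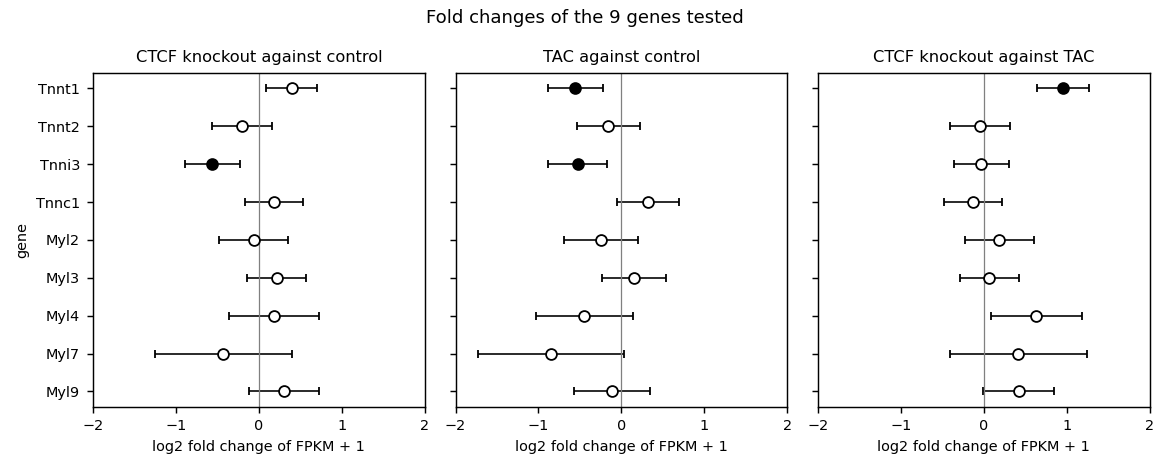
Log2 fold changes of FPKM + 1 (horizontal axes) of the 9 genes tested, in 3 comparisons; points are limma estimates, bars their 95% intervals, and filled points have an adjusted p under 0.05. Tnni3 is filled at -0.56 and -0.53 against control, and Tnnt1 at -0.56 for TAC against control and 0.95 for knockout against TAC.

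Although Tnnt2 and Tnnc1 were not called alone, ratios among Tnni3, Tnnt2 and Tnnc1 within a library did not overlap between either condition and control. These ratios share genes, among them the called Tnni3, so they are not separate results. Knockout and TAC overlapped in each of these ratios. Single genes failed to overlap with control in 30.8% (knockout) and 31.6% (TAC) of cases, and the share for ratios of other gene pairs was not computed. This balance does not depend on rescaling between libraries. The ratio of Tnni3 to Tnnc1 FPKM was 1.30, 1.13, 1.23 and 1.28 in knockout libraries, 1.15, 1.21 and 1.10 in TAC libraries and 2.20, 2.04 and 1.99 in control libraries. All 7 knockout and TAC libraries lay below the 3 controls. The ratio of Tnni3 to Tnnt2 was 0.820 to 0.931 in knockout, 0.777 to 0.926 in TAC and 1.08 to 1.12 in control libraries. The ratio of Tnnt2 to Tnnc1 was 1.32 to 1.55 in knockout, 1.24 to 1.42 in TAC and 1.77 to 2.03 in control libraries. These ratios are given as values: with 4 against 3 libraries an exact two-sided permutation test cannot give a p under 0.0571, and with 3 against 3 not under 0.1.

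**Figure D3:**
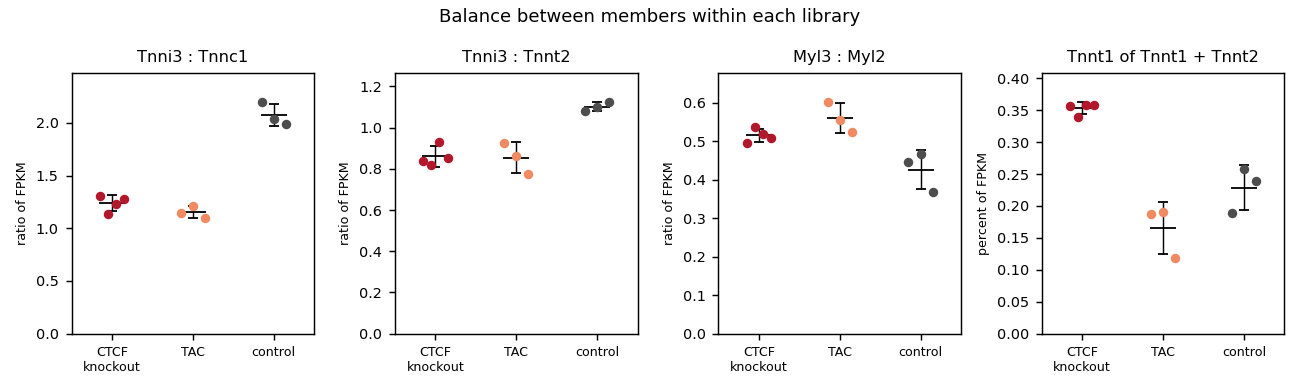
Ratios of FPKM within each library, and the percent of troponin T FPKM from Tnnt1 (vertical axes from 0), in 4 CTCF knockout, 3 TAC and 3 control libraries; points are libraries, and bars are the mean with 1 SD. Tnni3 to Tnnc1 lies between 1.10 and 1.30 in the knockout and TAC libraries and between 1.99 and 2.20 in controls.

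The ventricular light chains were not called in any comparison. Myl2 measured 8955, 7952, 9378 and 6554 FPKM in knockout, 5782, 7598 and 8374 FPKM in TAC and 7256, 8631 and 9765 FPKM in control libraries. Its log2 fold change was -0.06 (95% interval -0.48 to 0.35) in knockout and -0.24 (-0.69 to 0.20) in TAC. Myl3 measured 4438, 4265, 4868 and 3339 FPKM in knockout, 3478, 4216 and 4387 FPKM in TAC and 3229, 4020 and 3600 FPKM in control libraries, with log2 fold changes of 0.22 (-0.14 to 0.57) in knockout and 0.15 (-0.23 to 0.54) in TAC. The ratio of Myl3 to Myl2 did not overlap with controls: it was 0.496 to 0.536 in knockout and 0.524 to 0.602 in TAC libraries, against 0.369 to 0.466 in control libraries. Knockout and TAC overlapped in this ratio too. Single genes failed to overlap with control in 30.8% (knockout) and 31.6% (TAC) of cases, and the share for ratios of other gene pairs was not computed.

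The atrial light chains stayed at a few FPKM, and none was called. Myl4 measured 4.32, 7.92, 5.57 and 5.61 FPKM in knockout, 3.27, 2.90 and 3.91 FPKM in TAC and 7.81, 2.76 and 5.30 FPKM in control libraries. Controls spanned nearly the whole range, while every knockout library lay above every TAC library (log2 difference 0.63, SE 0.25, limma adjusted p = 0.206). In this comparison groups failed to overlap for 18.1% of all genes (8.43% higher, 9.64% lower). Myl7 measured 2.94, 7.01, 3.50 and 5.35 FPKM in knockout, 3.91, 1.77 and 4.09 FPKM in TAC and 13.5, 3.50 and 5.13 FPKM in control libraries. Control library 1 was highest, and the other 9 libraries lay between 1.77 and 7.01 FPKM. The ratio of Myl4 to Myl7 was 1.05 to 1.59 in knockout, 0.838 to 1.64 in TAC and 0.577 to 1.03 in control libraries. In that ratio TAC overlapped with control, and how often ratios of other gene pairs overlap was not computed. Myl4 made up 0.141% ± 0.0421 of the Myl3 and Myl4 FPKM in knockout, 0.0840% ± 0.0133 in TAC and 0.152% ± 0.0865 in control libraries (SD). Myl7 made up 0.0599% ± 0.0289 of the Myl2 and Myl7 FPKM in knockout, 0.0465% ± 0.0222 in TAC and 0.0931% ± 0.0809 in control libraries (SD). Nppa was higher in all of these knockout and TAC libraries, while both light chain shares overlapped with controls.

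Myl9, the regulatory light chain of smooth muscle and non-muscle cells, measured 9.63, 9.75, 12.4 and 9.04 FPKM in knockout, 7.44, 5.32 and 9.79 FPKM in TAC and 6.08, 10.4 and 8.09 FPKM in control libraries. The groups overlapped, and the log2 fold changes were 0.30 in knockout (limma adjusted p = 0.305) and -0.11 in TAC (adjusted p = 0.758). The sum of smooth muscle and pericyte markers was lower in all knockout and TAC libraries than in controls, but the list went both ways: of 10 tested 1 was called higher (Cspg4) and 3 lower (Acta2, Abcc9 and Smtn) in each condition, with median log2 fold changes of -0.16 in knockout and -0.20 in TAC. These 4 markers, named after their values were seen, are 40% of those tested. Of all genes tested, 20.8% were called in knockout and 15.5% in TAC.

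In order of mean control level the genes ran Myl2, Tnni3, Myl3, Tnnt2 and Tnnc1, then Myl9, Tnnt1, Myl7, Myl4 and Tnni1. In controls Tnni3, Myl3 and Tnnt2 overlapped with each other, as did Myl9, Tnnt1, Myl7 and Myl4. In knockout libraries Myl3, at 4227 ± 644 FPKM (SD), had a lowest value of 3339 FPKM, above the highest Tnni3 value of 3000 FPKM. The same was true in TAC libraries (lowest Myl3 3478 FPKM, highest Tnni3 2978 FPKM), whereas Myl3 and Tnni3 overlapped in controls.

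At the level of transcripts, 43 of the 78 were tested. In knockout against control 3 were called (1 higher, 2 lower), against 14.9% of all 17605 transcripts tested (7.48% higher and 7.4% lower). In TAC against control 5 were called (2 higher, 3 lower), against 10.4% of all transcripts (5.73% higher and 4.66% lower). Between knockout and TAC no member transcript was called by limma, against 1.11% of all transcripts called (0.483% higher and 0.625% lower). At an unadjusted limma p under 0.05 there were 5 of the 43 member transcripts, and 2558 of all 17605. How Cufflinks divides reads between overlapping transcripts is an estimate, so these values are less direct than those of genes.

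The clearest change was in Myl2-203 (ENSMUST00000111751), a Myl2 transcript of 889 nt that ends far downstream. It measured 181, 232, 254 and 194 FPKM in knockout, 160, 229 and 203 FPKM in TAC and 58.2, 68.7 and 81.8 FPKM in control libraries. Every knockout and TAC library lay above every control, as groups failed to overlap for 27.8% of all transcripts in knockout and 29.4% in TAC. The log2 fold changes were 1.62 (SE 0.17, limma adjusted p = 0.000475) in knockout and 1.49 (SE 0.18, adjusted p = 0.00159) in TAC, and both were called under all 19 alternatives. Its share of Myl2 was 2.05% to 2.96% in knockout, 2.50% to 3.09% in TAC and 0.796% to 0.859% in control libraries, while Myl2-201, the main transcript, was not called. In the authors' deposited table the Cufflinks intervals of Myl2-203, before rescaling, began at 186 or above in knockout and 149 or above in TAC libraries and ended at 89.1 or below in control libraries.

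Myl2-203 carries a last exon of 324 nt at chr5:122113149-122113472 (mm10, plus strand), 6294 nt beyond the end of Myl2-201. That exon lies within Ccdc63, a gene on the opposite strand, and overlaps its exon at chr5:122113134-122113208. Ccdc63 measured 0.285 to 1.18 FPKM in knockout, 0.247 to 0.632 FPKM in TAC and 0.439 to 0.871 FPKM in control libraries, far below Myl2-203. Among the minor Myl2 transcripts, Myl2-208 was called lower in knockout (4.07 to 4.77 FPKM, against 5.50 to 9.22 FPKM in controls; log2 fold change -0.70, limma adjusted p = 0.0180). Myl2-206 was called lower in TAC (25.7 to 37.8 FPKM, against 39.1 to 60.5 FPKM in controls; log2 fold change -0.64, limma adjusted p = 0.0459). The Myl2-206 call was lost in 12 of 19 alternatives, and that of Myl2-208 in 4 of 19, among them without control library 1 (0.0651) or 3 (0.0634).

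**Figure D4:**
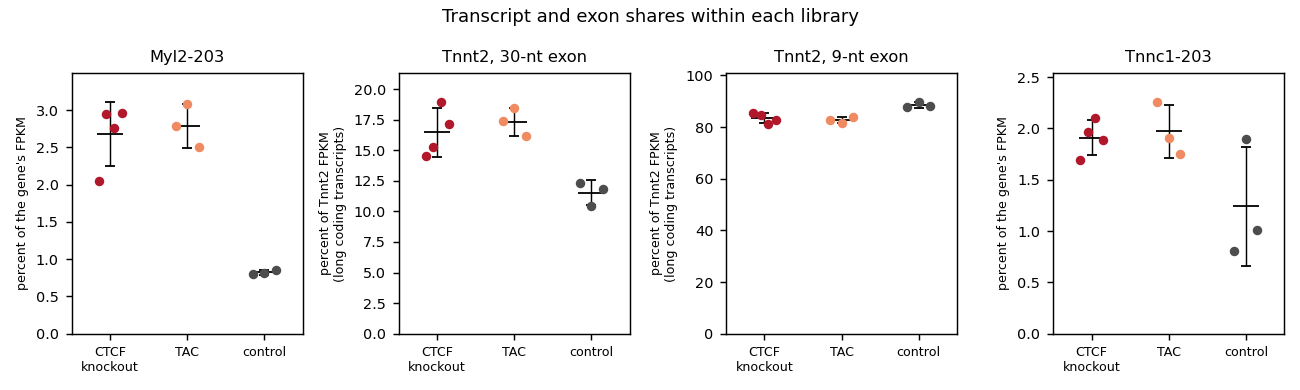
Percent of the FPKM of a gene in 1 transcript, or in long coding Tnnt2 transcripts that hold an exon (vertical axes from 0), in 4 CTCF knockout, 3 TAC and 3 control libraries; points are libraries, and bars are the mean with 1 SD. Myl2-203 takes 2.05% to 3.09% of Myl2 in the knockout and TAC libraries and 0.796% to 0.859% in controls, and the 30-nt exon of Tnnt2 takes 14.5% to 18.9% in the knockout and TAC libraries and 10.4% to 12.3% in controls.

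Cardiac troponin T is known for a short acidic exon that embryonic hearts include and adult hearts mostly skip. In the annotation it is a 30-nt exon at chr1:135843785-135843814 (mm10, plus strand), beside a 12-nt exon at chr1:135842015-135842026. The sequences below, from GENCODE transcripts of the same build, show the junction in Tnnt2-207, which holds both exons, and in Tnnt2-201, the main transcript, which holds neither; capitals mark the 30-nt exon, and the 12 bases before it are the 12-nt exon.
Tnnt2-207: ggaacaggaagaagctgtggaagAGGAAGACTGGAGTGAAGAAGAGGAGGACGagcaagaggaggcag
Tnnt2-201: ggaacaggaagagcaagaggaggcag
Both exons are multiples of 3, and 86.7% of the bases of the 30-nt exon are A or G. Transcripts with the 30-nt exon held 14.5%, 15.2%, 18.9% and 17.1% of the FPKM of long coding Tnnt2 transcripts (10 of at least 1000 nt) in knockout, 17.4%, 18.5% and 16.2% in TAC and 12.3%, 10.4% and 11.8% in control libraries. Knockout and TAC lay above controls without overlap. Single transcripts failed to overlap with control in 27.8% (knockout) and 29.4% (TAC) of cases, and the share for exon fractions was not computed. For the 12-nt exon the shares were 30.3% to 35.2% in knockout, 30.6% to 35.2% in TAC and 27.1% to 29.2% in control libraries. A 9-nt exon at chr1:135850379-135850387 (caagctcag) held a lower share, 81.2% to 85.5% in knockout and 81.5% to 83.9% in TAC, against 87.7% to 89.6% in controls. Tnnt2-207 holds the 12-nt and 30-nt exons and lacks the 9-nt exon. The shares of the 30-nt and 9-nt exons therefore largely mirror each other and are not separate observations. Which of these exons the change belongs to was not tested. Tnnt2-207 alone measured 383, 363, 494 and 348 FPKM in knockout, 343, 471 and 482 FPKM in TAC and 287, 257 and 311 FPKM in control libraries. As a transcript it was not called in knockout (log2 fold change 0.47, SE 0.16, limma adjusted p = 0.0771) or TAC (0.59, SE 0.17, adjusted p = 0.0557).

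Tnnc1-203 is classed by GENCODE as a target of nonsense-mediated decay. Its annotated first and last exons are shorter than those of the main Tnnc1-202 (49 against 67 nt, and 131 against 224 nt). It also lacks 26 nt at chr14:31211280-31211305 (mm10, plus strand), in capitals, a length that shifts the reading frame.
Tnnc1-202: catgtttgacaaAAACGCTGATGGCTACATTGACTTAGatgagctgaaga
Tnnc1-203: catgtttgacaaatgagctgaaga
It measured 36.2, 42.1, 50.4 and 32.3 FPKM in knockout, 44.9, 42.2 and 45.9 FPKM in TAC and 13.2, 34.9 and 20.3 FPKM in control libraries. The TAC libraries lay above controls (log2 fold change 1.03, SE 0.28, limma adjusted p = 0.0462), while in knockout it was not called (0.88, SE 0.26, adjusted p = 0.0517). Its TAC call ended in 14 of 19 alternatives, 9 of them among the 10 that left out 1 library (adjusted p from 0.0538 to 0.116). Its share of Tnnc1 was 1.69% to 2.10% in knockout, 1.75% to 2.26% in TAC and 0.810% to 1.90% in control libraries, so it remained minor.

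The main transcript of Tnni3 followed the gene. Tnni3-201, which held at least 95.3% of Tnni3 FPKM in every library, measured 2110 to 2867 FPKM in knockout, 2237 to 2807 FPKM in TAC and 3420 to 3882 FPKM in control libraries. It was called lower in knockout (log2 fold change -0.55, limma adjusted p = 0.0282) and not in TAC (-0.53, adjusted p = 0.0551). The intron-retaining Tnni3-206 was called lower in TAC (9.65 to 16.4 FPKM, against 23.3 to 37.6 FPKM in controls; log2 fold change -1.19, limma adjusted p = 0.0141), as was Tnni3-204 (9.91 to 16.3 FPKM, against 17.5 to 32.8 FPKM; -0.84, adjusted p = 0.0436). The calls were lost in 10 of 19 alternatives for Tnni3-201 in knockout, 12 of 19 for Tnni3-204 and 2 of 19 for Tnni3-206, the last without TAC library 3 (adjusted p = 0.0535) or with no minimum. Retained intron transcripts together held 1.94% to 2.85% of Tnni3 FPKM in knockout, 1.16% to 3.14% in TAC and 1.91% to 3.59% in control libraries, and the groups overlapped.

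The other 10 genes of the troponin and light chain families, of which 5 were tested, included called members, 2 of 5 in each condition (40%), against 20.8% of all genes in knockout and 15.5% in TAC. Myl1, a fast muscle and embryonic essential light chain, measured 34.0, 19.6, 28.7 and 31.5 FPKM in knockout, 54.4, 65.1 and 48.0 FPKM in TAC and 22.3, 36.1 and 28.1 FPKM in control libraries. TAC libraries stood above all others, and knockout libraries overlapped with controls. Myl1 rose in TAC (log2 fold change 0.94, limma adjusted p = 0.0120), with -0.02 (adjusted p = 0.960) in knockout and -0.97 (adjusted p = 0.0254) between knockout and TAC. Myl12a, a non-muscle regulatory light chain, rose in both (605 to 681 FPKM in knockout, 611 to 963 FPKM in TAC and 375 to 484 FPKM in control libraries; log2 fold changes 0.53 in knockout and 0.83 in TAC, limma adjusted p = 0.0335 and 0.00740). Its near-identical neighbour Myl12b stood at 7.49 to 12.3 FPKM, and reads shared between them make both values uncertain; 8 of 22 alternatives ended the knockout call of Myl12a, including that without control library 1 (0.112). Myl6, the non-muscle essential chain, rose in knockout (0.37, limma adjusted p = 0.0481), a call that 15 of 22 alternatives ended. The fast skeletal Tnnt3, Tnni2, Tnnc2 and Mylpf averaged under 1 FPKM, and Myl10 was listed at 0 in every library.

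Enzymes that act on light chains or troponin changed in both directions: of 16 genes listed 13 were tested, with 3 higher and 5 lower in knockout and 2 higher and 3 lower in TAC. That is 61.5% called in knockout, against 20.8% of all genes, and 38.5% in TAC, against 15.5%. None was called between knockout and TAC by limma, against 3.28% of all genes. At an unadjusted limma p under 0.05 there were 2 of the 13 in that comparison, and 2042 of all 11358 genes. Mylk4, of the myosin light chain kinase family, measured 5.58, 11.1, 8.29 and 8.52 FPKM in knockout, 16.7, 8.69 and 5.87 FPKM in TAC and 41.8, 24.6 and 16.1 FPKM in control libraries. Its log2 fold changes were -1.53 (limma adjusted p = 0.00950) in knockout, called under all 22 alternatives, and -1.33 (adjusted p = 0.0322) in TAC, lost in 7 of 22, among them without TAC library 3 (0.115). Mylk3, the cardiac myosin light chain kinase, measured 108, 108 and 142 FPKM in TAC, against 189, 232 and 182 FPKM in control libraries (-0.75, limma adjusted p = 0.00713), and was not called in knockout (137 to 180 FPKM; -0.33, adjusted p = 0.122). Tnni3k, a kinase that binds troponin I, fell in both (31.0 to 36.1 FPKM in knockout, 31.9 to 35.4 FPKM in TAC and 44.7 to 49.2 FPKM in control libraries; log2 fold changes -0.49 in knockout and -0.45 in TAC), and lost both calls with no rescaling (limma adjusted p = 0.0547 and 0.0682). Prkca, protein kinase C alpha, rose in both (log2 fold changes 0.53 in knockout and 0.75 in TAC), as did Ppp1r12a, the targeting subunit of myosin phosphatase (0.42 in knockout and 0.38 in TAC). Dapk3 rose in knockout (0.51). Ppp1cb, the catalytic subunit of myosin phosphatase (-0.50), Rock1 (-0.43) and Ppp1r12c (-0.38) fell in knockout. The calls of Ppp1r12c in knockout and Ppp1r12a in TAC were lost in 13 and 9 of 22 alternatives. In knockout, Prkca (0.0531) and Rock1 (0.0523) lost their calls without control library 1, and Ppp1r12a (0.0531) without control library 2. Rock1 also lost its call without control library 3 (0.0574) or with no rescaling (0.0829).

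Of 9 splicing regulators of troponin T exons, all tested, 1 rose and 2 fell in knockout and 2 fell in TAC, or 33.3% and 22.2% called, against 20.8% and 15.5% of all genes. Rbfox1 measured 5.56, 3.80, 4.24 and 3.84 FPKM in knockout, 3.55, 4.76 and 3.35 FPKM in TAC and 10.6, 9.98 and 9.57 FPKM in control libraries. No knockout or TAC library came near a control (log2 fold changes -1.05 in knockout and -1.19 in TAC, limma adjusted p = 0.000363 and 0.000401). Mbnl2, of the muscleblind family, fell in both (-0.54 in knockout and -0.38 in TAC, limma adjusted p = 0.00376 and 0.0375), the TAC call being lost in 14 of 22 alternatives. Rbfox2 rose in knockout (0.35, limma adjusted p = 0.0169), but not without control library 2 (0.0732) or with the replicate block (0.0580). Celf1, Celf2 and Mbnl1 were not called. Of 10 transcription factors of atrial and ventricular identity 7 were tested, and Tbx5 and Mef2a fell in knockout (-0.51 and -0.40) and in TAC (-0.87 and -0.63, limma adjusted p = 0.00132 and 0.00290). These 2 are 28.6% of the 7 tested in each condition, against 20.8% of all genes in knockout and 15.5% in TAC. Mef2a lost its knockout call without control library 3 (0.0637) or with no rescaling (0.133).

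**Figure D5:**
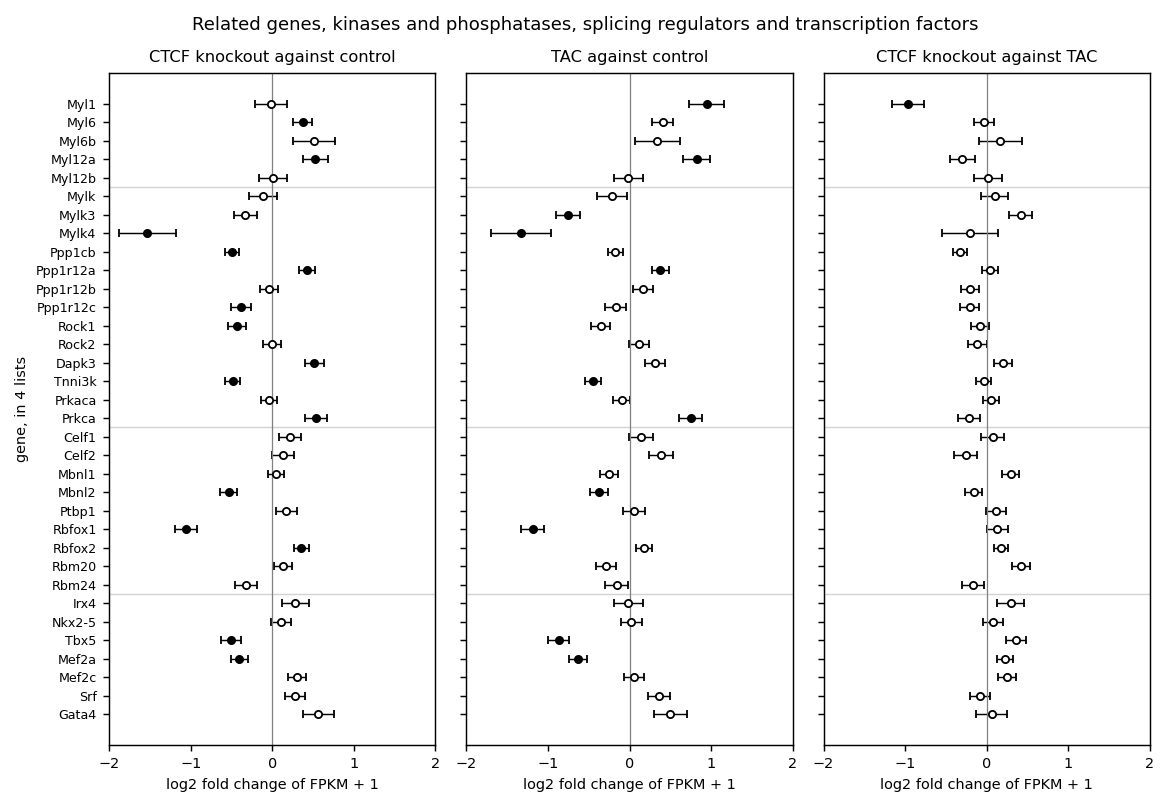
Log2 fold changes of FPKM + 1 (horizontal axes) of related genes tested, in 4 lists from top to bottom: other family genes, kinases and phosphatases, splicing regulators and transcription factors. Points are limma estimates, bars 1 SE, and filled points have an adjusted p under 0.05; Rbfox1 and Mylk4 lie farthest below 0 in both comparisons with control, and Myl1 is filled for TAC against control and knockout against TAC.

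Profiles across the 10 libraries were compared, as a description, by the root mean square difference of centred log2(FPKM + 1) values over 10318 protein-coding genes outside the 10. Tnni3 was nearest to Hadhb, a subunit of the mitochondrial trifunctional protein of fatty acid oxidation (0.07), and to Suclg2, a citric acid cycle subunit (0.07), where the Tnni3 profile itself had a root mean square of 0.29. Tnnc1 was nearest to the glycolytic enzymes Tpi1 (0.06) and Aldoa (0.07). Tnnt2 was nearest to Ndufc2 and Ndufb6, subunits of respiratory complex I (0.07 each), Myl2 to Bola1 (0.05) and Lyar (0.07), and Myl3 to Elob and Lsg1 (0.06 and 0.07). Tnnt1 was nearest to Ifit1bl2 (0.13) and Cryz (0.17), and Myl9 to Ppil3 (0.13) and Irx4 (0.14). Myl4 was nearest to Axin2 (0.23) and Dlc1 (0.24), and Myl7 to Adamts7 and Itpr2 (0.31 each). The distances of these low genes were larger, but so were the root mean squares of their own profiles. Those ran from 0.31 (Myl9) to 0.61 (Myl7), against 0.19 (Myl3) to 0.29 (Tnni3) for the abundant genes.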

How the data were processed

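RNA was extracted from isolated myocytes and sequenced as stranded paired-end libraries, per the labels' protocols. The authors deposited 1 transcript table per library, with FPKM from Cufflinks among text attributes in the ninth column. Per the submitters' processing notes, the build was mm10 and the tools were Cufflinks 2.2.1 and Cuffdiff, with TopHat2 2.1.0 and Bowtie2. As other deposited values, the Cufflinks intervals were used once and without rescaling. No read counts were used here, so depth is unknown; median coverage per FPKM, which follows depth, ran from 3.90 to 6.09. Transcript FPKM was summed by gene ID. Set aside were 22 gene IDs listed at 0 in some libraries with a median of at least 100 FPKM in the libraries above 0, and IDs or transcripts under 300 nt. Rescaling used the median of ratios over genes above 0 everywhere with a mean of at least 1 FPKM (factors 0.912 to 1.10 for genes). Features with a mean of at least 1 FPKM (11358 genes, 17605 transcripts) were fitted as log2(FPKM + 1), all 10 libraries together, by limma 3.58.1 (R 4.3.3, variance trend), a fit checked on simulated data. A fold change on this scale understates changes of low genes.

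Members, lists and markers were chosen with earlier results of these data known, as was the rule for zeros. The rule named all members, up to 4 called genes per list and comparison by adjusted p (all, where a count was 5 or fewer), and the 2 genes nearest to each member. Transcript names came from GENCODE M21, and promoters from RefSeq, which held all 10 members. Labels do not say that mice were littermates, and p-values measure the spread between these libraries. Libraries correlated at 0.971 to 0.988 within and 0.942 to 0.980 between groups, so none was a duplicate. Alternatives covered the pseudocount, minimum, scaling, groups fitted, replicate block, weights, variance trend, sex (4 of 10 libraries had more Y-linked than Xist RNA) and leaving out each library.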

Additional observations from a re-analysis of the deposited data

Results flagged for a closer look

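Tnnt1 differed between the effects of the 2 conditions: the log2 effect of CTCF knockout minus that of TAC was 0.95 (limma adjusted p = 0.00620), with knockout libraries above and TAC libraries below all controls. Myl1 differed the other way, by -0.97 (limma adjusted p = 0.0254), a call that 6 of 22 alternatives ended, including those without CTCF knockout library 3 (adjusted p = 0.0681), TAC library 1 (0.0734) or TAC library 2 (0.110). Among the 4 knockout libraries, library 4 stood apart in the Tnni1 share of troponin I FPKM, at 0.00982%, against 0.0338% to 0.0362% in the other knockout libraries. Library 2 stood apart in the Tnnt1 share of troponin T FPKM, at 0.339%, where the others lay between 0.357% and 0.358%, a gap that is narrow in absolute terms. Of 76 quantities examined for such a gap 2 were marked, and chance marks about 1 in 20.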

How the results depend on the processing

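Under all 22 gene-level and 19 transcript-level alternatives, no called change turned its direction. Tnnt1 between knockout and TAC, and Myl2-203 against control in both conditions, kept their calls throughout. For knockout against control the count of member genes called was 0 with no minimum and 2 with quantile normalization; for member transcripts it was 5 with a minimum mean of 5, with quantile normalization and with only the 2 groups fitted, and 1 with no minimum and with the replicate block. For TAC against control the count of member genes was 0 with no minimum, no rescaling, only the 2 groups or sex as a covariate, and 1 with a pseudocount of 0.1, quantile normalization or factors from all features above 0 (chosen after seeing the data); member transcripts were 8 with a minimum mean of 5, 1 with no minimum, 2 with no rescaling or only the 2 groups, and 3 with factors from all features. All genes called were 1487 (knockout) and 1167 (TAC) with a minimum mean of 5, 1153 (TAC) with only the 2 groups, and, between knockout and TAC, 195 with no minimum, 200 with the replicate block and 233 with sex. Fewer features are tested with a higher minimum; otherwise the cause was not tested. Leaving out 1 library gave 0 to 1 member genes (1689 to 2323 of all genes, 1 to 5 member transcripts) in knockout, 0 to 2 (1239 to 1656; 2 to 7) in TAC, and 1 to 1 (133 to 443; 0 to 0) between knockout and TAC. Same-numbered libraries did not deviate together (correlations from -0.36 to 0.33). No pairing by number was seen, but groups of 3 or 4 libraries are too few to exclude one. The replicate block left Tnni3 called in both conditions. By limma adjusted p, it ended the knockout calls of Tnni3-201 (0.0571), Myl2-208 (0.0550), Myl6 (0.0866), Ppp1r12c (0.0928) and Rbfox2 (0.0580). It also ended the TAC calls of Tnnc1-203 (0.0614), Tnni3-204 (0.112), Ppp1r12a (0.0704) and Mbnl2 (0.0805), and that of Myl1 between knockout and TAC (0.0712). With no rescaling Tnni3 was no longer called in knockout while Tnnt1 was (0.0412), so that count of 1 is not the same gene. With the highest transcript of each gene, 3 of 12 share means moved by more than 1 SD, among them Tnnt1 in knockout and Myl4 in TAC (0.0593% of essential chains); Tnnt1 was at 0.324% of troponin T in knockout, 0.178% in TAC and 0.173% in control libraries. Values near or under 1 FPKM, as for Tnni1, are given here without their counting error and are uncertain. Depth is unknown, and 3 or 4 mice a group limit what can be called.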
